A study of Drosophila melanogaster with 12 samples.

Results

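The vacuolar proton pump genes were taken as all genes whose symbol starts with Vha, a rule on names that used no measured value. They were 24 of the 10392 genes in the merged table of wounded, unwounded and wasp inf. 24 hr hemocytes, 33 of the 14597 genes in the separate wasp inf. 48 hr table and 28 of the 13313 genes in the separate wasp inf. 24 hr table, with 33 symbols in all. Single hemocytes, the blood cells of the fly larva, were profiled by scRNA-seq that counts unique molecular identifiers (UMIs), 1 for each captured transcript. The pump genes took 378669 of 75607115 UMIs in 19458 cells of the merged table. They took 438429 of 61086056 UMIs in 7035 cells at 48 hr, and 171119 of 37895112 UMIs in 6268 cells of the 24 hr table. The symbols *VhaM8.9*, *Vha14-2*, *Vha16-2*, *Vha16-4*, *Vha100-3*, *Vha100-5*, *VhaPPA1-2*, *VhaAC39-2* and *VhaM9.7-d* occurred only in the Drop-seq tables. The merged table lists *VhaM8.9* under its other name, *ATP6AP2*, which the rule does not take.

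The vacuolar ATPase pumps protons into endosomes, lysosomes and phagosomes, and so acidifies the compartments in which engulfed material is broken down. Its V1 sector lies in the cytosol, where a head of A and B subunits hydrolyses ATP and turns a central stalk, while its V0 sector lies in the membrane, where a rotating ring of c subunits carries protons past the a subunit. Many subunits of the fly pump have several gene copies, among them the a subunit, whose copies are known in yeast and mammals to direct pumps to particular membranes. Plasmatocytes, the phagocytes of the fly larva, and lamellocytes, the flat cells that encapsulate wasp eggs, arise in the same blood, together with crystal cells, which make the enzymes of melanization.

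Hemocytes were compared among 14 libraries. Hml>EGFP larvae gave the 4 wounded and the 4 unwounded libraries, and in both groups HmlΔ-GAL4, a driver active in most hemocytes, switches on EGFP. In each group, 10X Chromium was used for replicates 1 and 2 and inDrops for the other two. Larvae were pricked with a tungsten needle at 96 hr after egg lay (AEL) or left unwounded, and bled 24 hr later. The 3 wasp inf. 48 hr and 3 wasp inf. 24 hr libraries came from Oregon R larvae that were exposed to the wasp Leptopilina boulardi at 72 hr AEL, and were made with Drop-seq. The 24 hr libraries are labelled 96 hr AEL. The 48 hr libraries are labelled 128 hr AEL, whereas the study's methods give 120 hr AEL. Each library holds hemocytes of pooled larvae, vortexed before bleeding, so that sessile cells are included and no cell can be assigned to an animal. Wasp libraries differ from the others in strain, age, cell isolation, technology and annotation at once, and these were not tested against each other.

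Libraries of the merged table held 181 to 4013 cells and 623998 to 17452765 UMIs, and the 48 hr libraries 1867 to 3113 cells and 16006209 to 27556002 UMIs. A barcode was found in more than 1 library for 9 of 19449 barcodes in the merged table and for 2 of 7033 at 48 hr. The 6 plasmatocyte markers summed to 17170 to 20229 CPM (counts scaled to the total UMIs of the library) in wounded and to 17463 to 32721 CPM in unwounded libraries, but only to 895 to 1749 CPM at 48 hr and to 948 to 2494 CPM in the 24 hr table. The lamellocyte markers, 7 in the merged table and 6 of 7 found in the Drop-seq tables, summed to 23623 to 28680 CPM at 48 hr and to 1490 to 2852 CPM in the 24 hr table, and to 1137 to 2670 CPM in wounded and 478 to 875 CPM in unwounded libraries. Fat body and muscle markers reached at most 84.1 CPM in any library. CPM of UMIs does not depend on transcript length, because each transcript is counted at its end. Copies of 1 subunit (Vha16, Vha68, Vha36, Vha100 and VhaM9.7 genes) can share reads where their sequences are alike, and how alike they are was not examined. Genes that overlap another gene (*Vha44* and *Hmgs*, *Vha100-1* and *Alg13*, *Vha100-2* and *Vti1b*, *VhaM9.7-c* and *Teh2*) can share reads too. Whether strand was used in counting is not given in the sources used here, so that the separate levels of these copies and overlapping genes are uncertain.

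All parts of the pump were measured in hemocytes, and 14 genes with a mean of at least 50 CPM carried nearly all of its UMIs. *Vha16-1*, the main gene of the proton-carrying c ring, was the highest with a mean of 1367 CPM over the 11 merged libraries and 28.0% of all pump UMIs. In the V1 head, *Vha68-2* (catalytic subunit A) averaged 429 CPM and *Vha55* (subunit B) 402 CPM. In the V1 stalks, *Vha13* (subunit G) averaged 412 CPM, *Vha26* (subunit E) 374 CPM, *Vha14-1* (subunit F) 229 CPM, *VhaSFD* (subunit H) 196 CPM, *Vha44* (subunit C) 187 CPM and *Vha36-1* (subunit D) 186 CPM. For each of these subunits with copies in the table, 1 copy took most of the UMIs. In V0, *VhaM9.7-b* (subunit e) averaged 397 CPM, *VhaPPA1-1* (the c″ subunit of the ring) 233 CPM, *VhaAC39-1* (subunit d) 184 CPM and *Vha100-2* (subunit a) 151 CPM, and the accessory subunit *VhaAC45* 361 CPM. *Vha100-1*, a second a subunit, lay just below the limit of 50 CPM with a mean of 48.6 CPM, and was between 24.0 and 76.8 CPM.

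**Figure D1:**
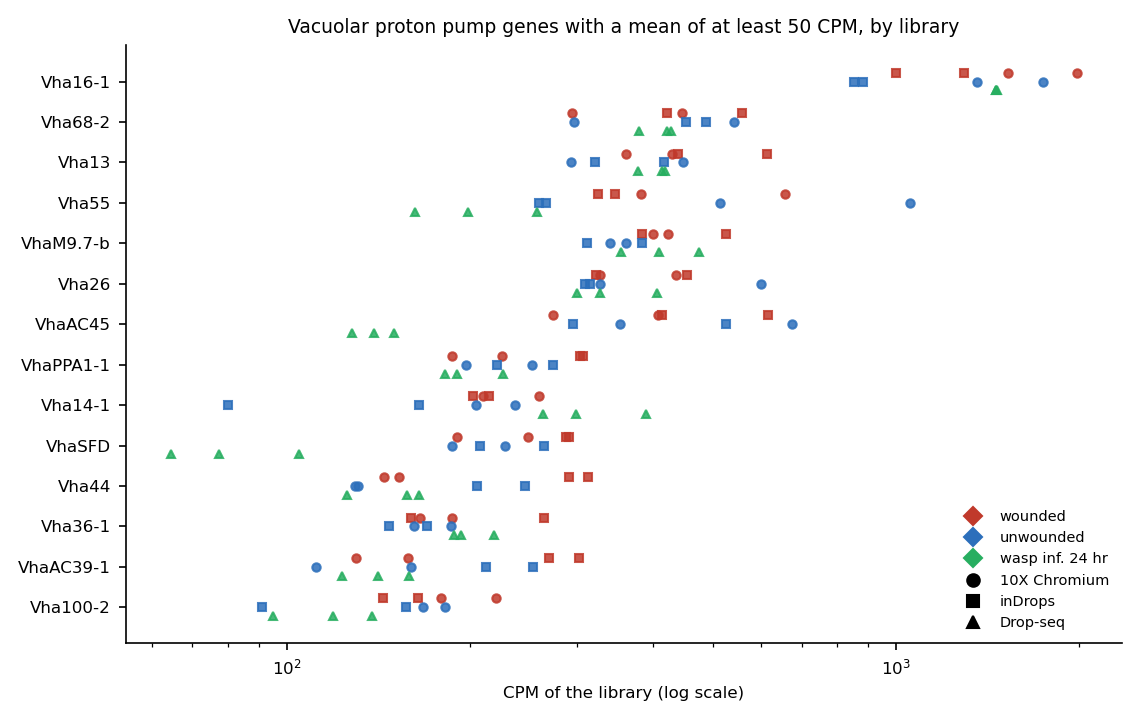
Level of each pump gene with a mean of at least 50 CPM in the 11 libraries of the merged table, as CPM on a log axis; each point is a library, colors mark the condition and shapes the technology. *Vha16-1* is the highest gene in all 11 libraries, between 854 and 1981 CPM.

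Some members differed between libraries of different technologies. *VhaSFD* had 190.6 to 290.1 CPM in wounded and 187.1 to 264.4 CPM in unwounded libraries, and 64.5 to 104.8 CPM in the 3 wasp inf. 24 hr libraries. *VhaAC45* had 273.8 to 616.7 CPM in wounded and 294.5 to 674.7 CPM in unwounded libraries, and 127.8 to 149.8 CPM in wasp inf. 24 hr libraries. Both genes were thus lower in every Drop-seq library than in any 10X or inDrops library, a difference in which technology, strain and infestation cannot be told apart. Within the wounding experiment *Vha16-1* was higher in the 10X than in the inDrops libraries, with 1981 and 1529 CPM in wounded and 1742 and 1361 CPM in unwounded 10X libraries, and 1296 and 1002 CPM in wounded and 853.9 and 884.6 CPM in unwounded inDrops libraries.

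The other 9 genes of the merged table stayed below 25 CPM in every library. *Vha36-3*, a copy of subunit D, had 13 UMIs in all 19458 cells, and *Vha100-4*, an a subunit encoded next to *Vha100-2* on chromosome arm 3R, had 74 UMIs. Some of these rare copies sat in few cells. *Vha16-3*, a c subunit, had 227 UMIs, 139 of them in wounded 2 and 88 in unwounded 2, and 218 of these lay in 3 cells that the authors had placed in cluster PM6. The same 3 cells held 166 of the 177 UMIs of *Vha16-5*, another c subunit, and 39.2% of those of *Vha68-3* and 34.9% of those of *Vha68-1*, copies of catalytic subunit A. In contrast, they had 238.2 CPM of *Vha16-1*, against 1410 CPM in all other cells, and 19.9 CPM of *Vha68-2*, against 410.0 CPM. These cells had 194048 and 156599 UMIs in wounded 2 and 203407 UMIs in unwounded 2, whereas the median cell had 3682 UMIs in wounded 2 and 4310.5 UMIs in unwounded 2. Among their highest genes were *Mst84Da* with 3220 CPM, against 0.946 CPM in other cells, and *Mst84Dc* with 3000 CPM, against 0.386 CPM, genes known from the male germ line. Pan-hemocyte markers (*He* and *srp*) summed to 81.2 CPM in them, against 1468 CPM in other cells. The 3 cells were picked for their *Vha16-3* UMIs (5 or more) after these were seen, and whether they are single cells was not tested. At 48 hr, 52 of the 58 UMIs of *Vha100-5*, an a subunit, in replicate 3 likewise lay in 1 cell.

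Across the authors' clusters, the summed pump level differed between cell types. The level of each cluster was set against all other cells of its own library, for libraries with at least 10 cells of the cluster, and is given without a test, since clusters were made from the same counts. The lamellocyte clusters were higher in each library, LM1 (intermediate lamellocytes) in 11 of 11 with a median ratio of 1.14 and LM2 (mature lamellocytes) in 6 of 6 with 1.21. The plasmatocyte cluster PM3 was higher in 9 of 9 libraries, with a median ratio of 1.09 and 13 of the 14 leading genes above 1. Crystal cells were lower, with CC1 above the other cells in 0 of 4 libraries (median ratio 0.82) and CC2 in 1 of 10 (0.85). PM4 was above the other cells in 1 of 8 libraries (0.88). The non-hemocyte cluster, with at least 10 cells in 1 library (26 of its 40 cells), had 2432 CPM and a ratio of 0.49. The other plasmatocyte clusters apart from PM7 had median ratios between 0.88 and 1.05. Single libraries went beyond this, the most in PM10 of wasp inf. 24 hr 3, with 7885 CPM and a ratio of 1.62 from 21 cells. PM10 was above the other cells in 4 of 7 libraries.

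Most of the 14 leading genes leaned the same way within these clusters. Their median ratio was above 1 for 14 in LM1 and 13 in LM2, and for 0 in CC1, 0 in PM4 and 3 in CC2. Single members of LM2, CC2 and PM3 differed from the others in size or direction. In LM2, *Vha44* (subunit C, which couples V1 to V0) was higher in 6 of 6 libraries with a median ratio of 1.45, and *Vha13* had a median ratio of 1.52 and *VhaAC39-1* of 1.49, each higher in 5 of 6. *Vha100-2*, in contrast, had a median ratio of 0.71 in LM2 and was higher in 3 of 6 libraries. In CC2, *Vha68-2* was lower in 10 of 10 libraries (median ratio 0.77) and *Vha100-2* in 8 of 10 (0.58), while *VhaSFD* was higher in 8 of 10 (1.06). In PM3, *Vha16-1* and *Vha68-2* were both higher in 9 of 9 libraries, with median ratios of 1.20 and 1.14, and *Vha13* in 1 of 9, with 0.96.

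**Figure D2:**
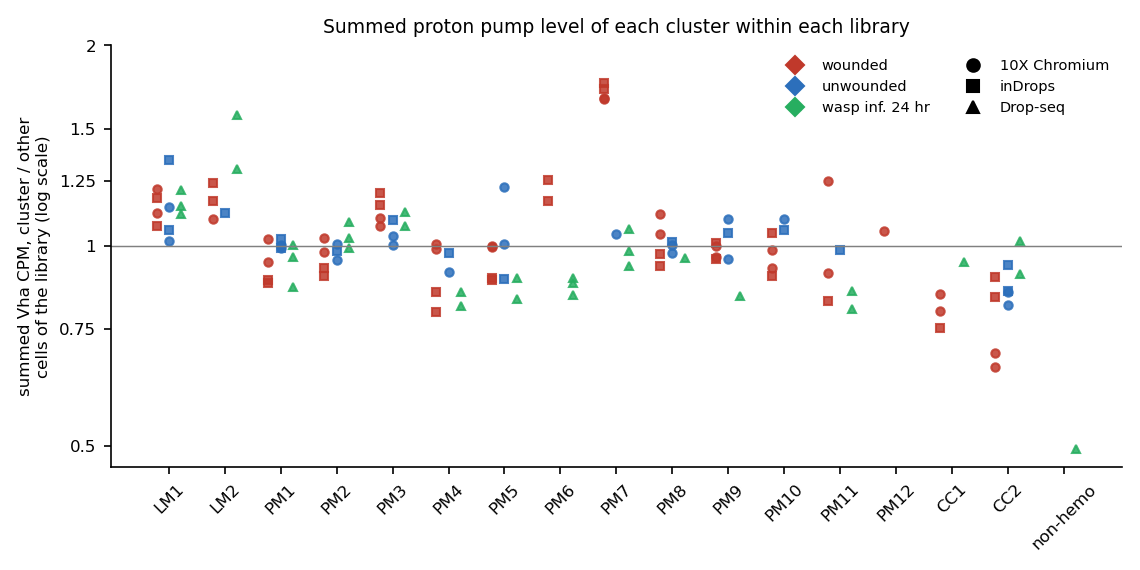
Summed CPM of all pump genes in each cluster divided by that of the other cells of the same library, on a log axis; each point is a library with at least 10 cells of the cluster, colors mark the condition, shapes the technology, and the line marks a ratio of 1. The PM7 cells of the 4 wounded libraries lie between 1.66 and 1.75, above the PM7 cells of the unwounded and wasp inf. 24 hr libraries.

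The highest pump level of all clusters was found in PM7, the plasmatocytes with antimicrobial peptide transcripts, in wounded libraries. Its summed pump level was 10183, 8314, 10540 and 8903 CPM in wounded 1 to 4, against 6119, 4986, 6008 and 5174 CPM in the other cells of these libraries. All 14 leading genes were higher in PM7 in 4 of 4 wounded libraries, with median ratios from 1.26 for *VhaSFD* to 2.13 for *Vha14-1*, and V1 and V0 genes shared in it, with median ratios of 1.70 and 1.73. PM7 cells of unwounded 2, the only unwounded library with enough of them, had 5157 CPM, against 4959 CPM in the other cells, and those of the 3 wasp inf. 24 hr libraries had 4911, 4311 and 4536 CPM, against 4643, 4388 and 4872 CPM. These cells also differed in the 5 antimicrobial peptide genes examined. In the PM7 cells of the wounded libraries *Mtk* was at 13667 to 34804 CPM, against 856.2 CPM in unwounded 2 and 0 to 94.4 CPM in the wasp inf. 24 hr libraries. *Drs* was at 8931 to 14416 CPM in the wounded libraries, against 14.8 CPM in unwounded 2 and 0.640 to 199.4 CPM in the wasp inf. 24 hr libraries, and *DptB* at 412.1 to 3359 CPM in the wounded libraries, against 0 CPM in all the others. The cecropin genes differed otherwise, with *CecA2* at 44.96 to 264.1 CPM in the wounded libraries, 0 CPM in unwounded 2 and 611.1 to 3920 CPM in the wasp inf. 24 hr libraries, and *CecC* at 1064 to 3995 CPM in the wounded libraries, 19.8 CPM in unwounded 2 and 673.2 to 3376 CPM in the wasp inf. 24 hr libraries. Compared with the wounded PM7 cells, those of the wasp inf. 24 hr libraries were thus lower in 3 of the peptide genes, higher in *CecA2* and overlapped in *CecC*. The wounded PM7 values rest on 47, 23, 13 and 111 cells and the unwounded one on 42 cells. Those of wasp inf. 24 hr 1 to 3 rest on 12, 159 and 12 cells. With 1 unwounded library, the difference between conditions within PM7 was not tested. In PM6, the summed pump ratio was 1.26 and 1.17 in wounded 3 and 4, and 0.88, 0.84 and 0.89 in the wasp inf. 24 hr libraries.

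Wounding was then compared with no wounding over libraries, with technology as a covariate, to ask whether pump transcripts change 24 hr after the injury. The sum of all pump genes was 6209, 5019, 6045 and 5320 CPM in wounded 1 to 4, against 6708, 4968, 4260 and 4617 CPM in unwounded 1 to 4. The groups overlapped, and within 10X the 2 libraries of each group overlapped as well, whereas both wounded inDrops libraries were above both unwounded ones. Of the 24 genes, 19 passed edgeR's filter on low counts, and 0 of these 19 had an adjusted p under 0.05 by edgeR's quasi-likelihood test, where 0.351% of all 7415 genes tested did. At an unadjusted p under 0.05 there were 0 as well, and DESeq2 called 0. The median log2 difference of the 19 genes was 0.15, and -0.00 over all genes tested. Within 10X the median was -0.09 and within inDrops 0.29, so that the technologies differed in its sign.

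The intervals of the differences were wide. *Vha16-1* had 1424 ± 328 CPM in wounded and 1218 ± 364 CPM in unwounded libraries (SD, n = 4 each; here and in the values of single genes beside all tests below, CPM is scaled by edgeR's TMM factors), with a log2 difference of 0.24 and a 95% interval of -0.20 to 0.68 from the edgeR fit. *Vha14-1* had the largest positive difference among the tested genes, 0.38 ± 0.24 (log2 ± SE, edgeR adjusted p = 1.00), with an interval of -0.16 to 0.91. Sums over all hemocytes cannot tell a change of the cell mix from a change per cell, so the test was repeated within classes. In the plasmatocyte clusters PM1 to PM12, edgeR called 0 of 19 genes, where it called 0.182% of all genes, and 0 had an unadjusted p under 0.05. In the lamellocyte clusters it called 0 of 16 genes, where 1.53% of all genes were called, and 0 had an unadjusted p under 0.05, although the median log2 difference of the 16 genes was 0.35, and 0.02 over all genes. Among these 16 genes, *VhaM9.7-b*, subunit e of V0, had the largest log2 difference, 0.54, and did not pass the test. It had 551.7 ± 73.9 CPM in wounded and 384.7 ± 60.7 CPM in unwounded libraries (SD, n = 4 each, edgeR adjusted p = 0.78). In crystal cells it called 0 of 15 genes, where 0.092% of all genes were called, and 0 had an unadjusted p under 0.05. DESeq2 called 0 pump genes in each of these 3 classes. The 3 PM6 cells described above stayed in the sums of all hemocytes and of plasmatocytes, and no fit left out these cells alone. They held 34.9% of the UMIs of *Vha68-1* and 39.2% of those of *Vha68-3* in the merged table, and both genes were tested. With the replicate number as a block, edgeR called 113, 68, 217 and 24 genes in all hemocytes, plasmatocytes, lamellocytes and crystal cells, in place of 26, 13, 78 and 2, and again 0 pump genes.

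**Figure D3:**
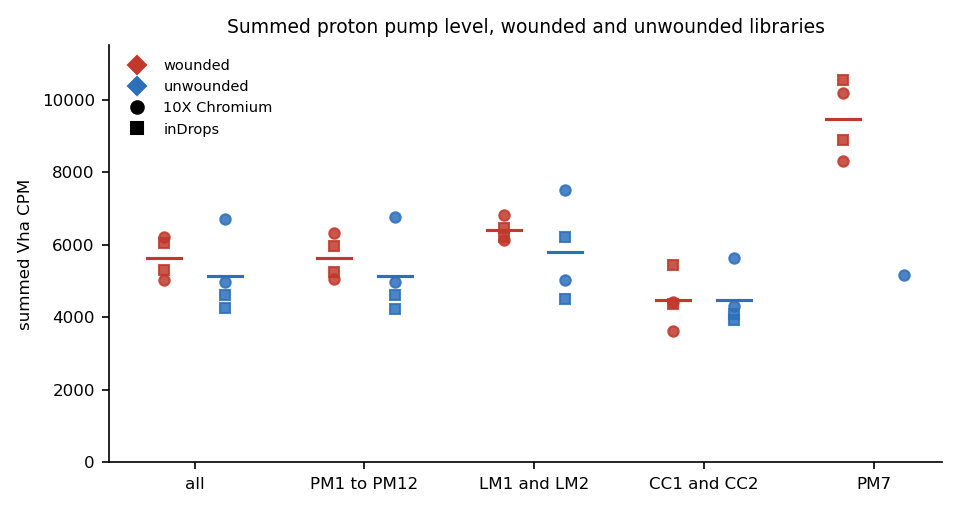
Summed CPM of the pump genes in wounded and unwounded libraries, over all hemocytes, in the 3 classes tested and in cluster PM7; points are libraries, circles 10X and squares inDrops, and bars mark means. Wounded and unwounded libraries overlap in the first 4 columns, while PM7 lies between 8314 and 10540 CPM in the wounded libraries and at 5157 CPM in the 1 unwounded library.

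After wasp infestation, the pump was higher at 48 hr than at 24 hr. The sum of all pump genes was 6747, 6936 and 7580 CPM at 48 hr, against 4390, 4258 and 4754 CPM at 24 hr, with no overlap. Of the 33 genes, 20 passed the filter on low counts. Of these 20, edgeR called 9 higher and 0 lower, where it called 20.1% of all 7998 genes higher and 15.8% lower, and their median log2 difference was 0.68, against 0.00 over all genes. The lamellocyte markers were higher at 48 hr as well, and cells with 5 or more UMIs of the lamellocyte marker *atilla* made up 60.5%, 70.6% and 71.5% of cells at 48 hr, against 21.6%, 5.59% and 8.72% at 24 hr, so that the cell mix and the level per cell cannot be told apart in these sums. The 48 hr larvae were also older, so that larval age and time after infestation cannot be told apart here or in the comparisons of the times below.

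Genes of all parts of the pump were among the 9. In the V1 head, *Vha68-2* had 729.7, 822.0 and 742.0 CPM at 48 hr, against 306.6, 415.2 and 429.6 CPM at 24 hr (log2 difference 0.99 ± 0.19 SE, edgeR adjusted p = 0.0070). *Vha55* had 296.8, 309.5 and 351.8 CPM at 48 hr, against 195.1, 178.6 and 200.02 CPM at 24 hr (0.74 ± 0.15, edgeR adjusted p = 0.0092). Both subunits that bind ATP were thus higher in each 48 hr library. In the V1 stalks, *Vha44* had 240.2, 246.1 and 251.2 CPM at 48 hr, against 117.5, 137.4 and 158.8 CPM at 24 hr (0.83 ± 0.16, edgeR adjusted p = 0.0077). *Vha13* had 566.0, 627.9 and 600.6 CPM at 48 hr, against 304.8, 414.4 and 421.0 CPM at 24 hr (0.65 ± 0.18, edgeR adjusted p = 0.028). *Vha36-1*, the D subunit of the turning central stalk, had 286.2, 305.6 and 302.6 CPM at 48 hr, against 141.3, 206.5 and 220.7 CPM at 24 hr (0.65 ± 0.20, edgeR adjusted p = 0.039). The stalk genes were higher at 48 hr without overlap, with the largest spread among the 24 hr libraries, of which replicate 1 held only 204 cells.

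The largest log2 differences among the 9 were those of a pair of V0 genes. *Vha100-1*, encoded at 3R:29131193-29137980 (BDGP6 coordinates, plus strand), had 94.2, 101.4 and 110.5 CPM at 48 hr, against 27.4, 52.6 and 33.8 CPM at 24 hr (1.42 ± 0.24, edgeR adjusted p = 0.0051). *VhaM9.7-c*, a low copy of subunit e at 3L:4186018-4186865 (minus strand), had 21.3, 26.002 and 22.1 CPM at 48 hr, against 6.86, 6.39 and 8.69 CPM at 24 hr (1.65 ± 0.18, edgeR adjusted p = 0.0011). *VhaAC39-1*, subunit d at the foot of the central stalk, had 237.7, 270.9 and 260.4 CPM at 48 hr, against 105.4, 135.0 and 160.0 CPM at 24 hr (0.94 ± 0.19, edgeR adjusted p = 0.0089). The accessory gene *VhaM8.9* was higher too, with 322.3, 339.6 and 347.7 CPM at 48 hr, against 132.2, 183.5 and 217.0 CPM at 24 hr (0.92 ± 0.21, edgeR adjusted p = 0.013). *Vha100-2*, the other main a subunit, did not pass the test, with 73.8, 63.9 and 73.7 CPM at 48 hr and 71.8, 151.6 and 120.3 CPM at 24 hr (-0.71 ± 0.26, edgeR adjusted p = 0.072). The remaining 10 genes tested did not pass either. Of the 9 calls, those of *Vha13* and *Vha36-1* were each lost without any 1 of the 48 hr replicates, that of *Vha13* also without 24 hr replicate 3 and that of *Vha36-1* without 24 hr replicate 2, and that of *VhaM8.9* without 48 hr replicate 2.

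The time difference was then taken within classes of cells set by *atilla* UMIs, whose make-up differed between the times. In cells with 5 or more, lamellocyte markers summed to 31354 to 34717 CPM at 48 hr and 8470 to 16267 CPM at 24 hr. In cells with 0, crystal cell markers summed to 1384 to 1605 CPM at 48 hr and 0.954 to 793.7 CPM at 24 hr. A change of make-up within a class and a change per cell cannot be told apart in these tests. In cells with 0 *atilla* UMIs, edgeR called 0 of 17 pump genes, where it called 10.1% of all 6541 genes, DESeq2 called 0 and 1 gene had an unadjusted p under 0.05, *VhaM9.7-c* (log2 difference 0.78 ± 0.27, edgeR adjusted p = 0.11). In cells with 5 or more *atilla* UMIs, it called 4 of 19 higher and 0 lower, where 11.8% of all genes were higher and 11.3% lower. These were *Vha100-1*, with 116.1, 114.8 and 128.3 CPM at 48 hr, against 44.8, 60.3 and 63.8 CPM at 24 hr (1.08 ± 0.17, edgeR adjusted p = 0.0055), *VhaM9.7-c* (1.15 ± 0.22, edgeR adjusted p = 0.010), *Vha68-2* (0.70 ± 0.21, edgeR adjusted p = 0.044) and *Vha55* (0.56 ± 0.16, edgeR adjusted p = 0.039). The count depended on single libraries. It was 11 without 24 hr replicate 3 and 2 without 24 hr replicate 2 or without 48 hr replicate 1, 2 or 3. Without normalization factors 8 genes were higher and 1 was lower, with DESeq2 8 and 1, and with RLE size factors 4 and 1. DESeq2 called 28.7% of all genes in these cells. *Vha100-1* passed in each of the 13 alternatives that were run.

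Within libraries, cells with 5 or more UMIs of *atilla*, a surface protein gene of lamellocytes, were set against cells with 0, pairing both sums of a library; the first are called *atilla* cells here. At 48 hr the pump genes were higher in the *atilla* cells nearly throughout. Of 20 genes tested, edgeR called 17 higher and 2 lower, where it called 31.5% of all 7546 genes higher and 30.1% lower, and the median log2 difference was 0.87, against 0.01 over all genes. *Vha68-1* reached the filter's cutoff of 1.41 CPM only in cells without *atilla* UMIs and *Vha68-3* in 2 of 3 sums of these cells, and of the 18 genes that reached it in every sum of both classes 17 were higher and 1 was lower, with a median log2 difference of 0.95. The *atilla* cells summed to 31354 to 34717 CPM of lamellocyte markers, of which *atilla* itself is one, against 816.5 to 1217 CPM in cells without *atilla* UMIs. Plasmatocyte markers summed to 277 to 692 CPM in *atilla* cells, against 3922 to 6172 CPM, so that the contrast is one of cell types. The *atilla* cells were also deeper, with median UMIs of 9123.5, 8726 and 8721, against 3752.5, 3927 and 3912. When each cell was thinned to 2000 UMIs, 16 of 17 genes tested were higher and 1 was lower. Without normalization factors the median of all genes moved by -0.44, and 17 of the 19 genes kept their call and all 19 their sign.

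The main V1 head and stalk genes were higher in each library. *Vha26*, subunit E of the outer stalks, had 482.0, 492.8 and 599.5 CPM in *atilla* cells, against 277.2, 294.3 and 364.8 CPM in cells without *atilla* UMIs (0.75 ± 0.09, edgeR adjusted p = 9e-06). *Vha14-1* had 513.5, 538.7 and 563.7 CPM in *atilla* cells, against 309.3, 326.4 and 297.1 CPM (0.79 ± 0.09, edgeR adjusted p = 7.8e-06). *VhaSFD*, the subunit that links ATP hydrolysis to proton flow, had 174.0, 138.3 and 160.1 CPM in *atilla* cells, against 95.8, 85.8 and 108.6 CPM (0.70 ± 0.10, edgeR adjusted p = 4.8e-05). None of these overlapped between the classes. Among the others, *Vha13* (1.19 ± 0.09), *Vha68-2* (1.15 ± 0.09), *Vha55* (0.99 ± 0.09), *Vha44* (0.95 ± 0.09) and *Vha36-1* (0.77 ± 0.09) rose as well, all with an edgeR adjusted p of at most 9.4e-06. *Vha68-1*, a rare copy of the catalytic subunit, had 9, 9 and 11 UMIs in *atilla* cells and 8, 8 and 8 UMIs in the far fewer UMIs of cells without *atilla*. Since it passed the filter only through the cells in which it was higher, its call as the second gene lower is given as a count only. *Vha68-3*, its other rare copy, did not pass the test (0.27 ± 0.47).

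In V0, the c ring gene *Vha16-1* had 2219, 2239 and 2762 CPM in *atilla* cells, against 1407, 1534 and 1844 CPM (0.60 ± 0.08, edgeR adjusted p = 3.5e-05). *VhaPPA1-1* had 295.3, 285.1 and 291.0 CPM in *atilla* cells, against 186.1, 211.0 and 219.3 CPM (0.50 ± 0.10, edgeR adjusted p = 0.00053). *VhaM9.7-b* had 798.3, 831.4 and 757.3 CPM in *atilla* cells, against 423.5, 444.2 and 357.9 CPM (0.97 ± 0.09, edgeR adjusted p = 9.4e-07). The membrane sector was thus higher in all 3 libraries too, and the call of *VhaPPA1-1* was lost without normalization factors (0.06, edgeR adjusted p = 0.56). *VhaAC39-1* (1.34 ± 0.10) and *VhaM9.7-c* (1.43 ± 0.16) rose more. The accessory genes rose with them, *VhaAC45* with 209.8, 208.5 and 247.6 CPM in *atilla* cells, against 115.005, 123.7 and 145.9 CPM (0.79 ± 0.09, edgeR adjusted p = 8.1e-06), and *VhaM8.9* by 0.96 ± 0.09.

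The 2 main genes of the a subunit went opposite ways in this contrast. *Vha100-1* had 132.3, 130.6 and 149.8 CPM in *atilla* cells, against 33.9, 42.9 and 43.4 CPM (1.79 ± 0.11, edgeR adjusted p = 2.2e-08), the largest rise of a pump gene in this contrast. *Vha100-2*, encoded at 3R:18390323-18399169 (minus strand), had 72.0, 62.1 and 69.3 CPM in *atilla* cells, against 106.5, 99.6 and 128.6 CPM (-0.71 ± 0.10, edgeR adjusted p = 5e-05). The classes did not overlap for either gene.

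**Figure D4:**
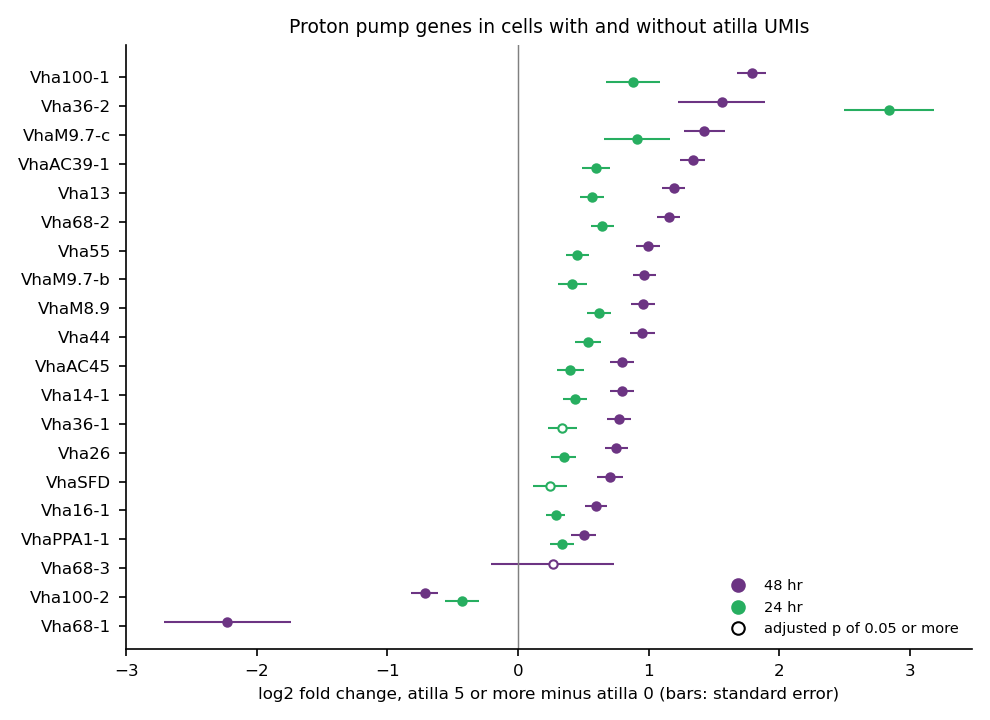
Log2 difference of each pump gene between cells with 5 or more *atilla* UMIs and cells with 0, at 48 hr and 24 hr; points are edgeR estimates, bars standard errors, and open points have an adjusted p of 0.05 or more. At 48 hr *Vha100-1* lies at 1.79 and *Vha100-2* at -0.71; the genes shown for 48 hr only did not pass the filter on low counts at 24 hr, and *Vha68-1* at 48 hr and *Vha36-2* at 24 hr passed it through 1 of the classes only.

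At 24 hr the median difference in the same contrast was smaller. Of 18 genes tested, edgeR called 15 higher and 1 lower, where it called 15.2% of all 6249 genes higher and 12.8% lower, and the median log2 difference was 0.45, against -0.01 over all genes. *Vha36-2* reached the filter's cutoff of 4.24 CPM only in *atilla* cells, and of the 17 genes that reached it in every sum of both classes 14 were higher and 1 was lower, with a median log2 difference of 0.44. Cells with 5 or more *atilla* UMIs were few in 2 libraries, with 44, 112 and 354 cells, against 130, 1775 and 3320 cells without *atilla* UMIs, and their median UMIs were 22889.5, 11921 and 6591, against 11731, 6263 and 3715. *Vha100-1* had 48.1, 61.3 and 62.9 CPM in *atilla* cells, against 20.6, 49.0 and 27.9 CPM (0.88 ± 0.20, edgeR adjusted p = 0.018), so that it was higher within each library while the classes overlapped between libraries. *Vha100-2* was the gene called lower, with 72.9, 97.4 and 89.6 CPM, against 79.9, 154.1 and 121.6 CPM (-0.43 ± 0.13, edgeR adjusted p = 0.045). *Vha36-1* (edgeR adjusted p = 0.058) and *VhaSFD* (edgeR adjusted p = 0.20) did not pass. The count of 16 genes fell to 9 without replicate 1, 13 without replicate 2 and 5 without replicate 3, and to 7 of 16 genes tested after thinning, while no called gene changed sign in any alternative. The call of *Vha100-1* was lost without replicate 1 or 3 and that of *Vha100-2* without replicate 2 or 3.

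The difference between the classes itself differed between the times for some genes. By the interaction term, edgeR called 6 of 19 pump genes as more strongly raised in *atilla* cells at 48 hr than at 24 hr and 0 as less, where it called 10.2% of all 6987 genes in the first direction and 9.09% in the second. They were *Vha100-1* (0.86 ± 0.25, edgeR adjusted p = 0.036), *VhaAC39-1* (0.69 ± 0.14, edgeR adjusted p = 0.0087), *Vha13* (0.57 ± 0.11, edgeR adjusted p = 0.0078), *VhaM9.7-b* (0.50 ± 0.14, edgeR adjusted p = 0.036), *Vha55* (0.49 ± 0.11, edgeR adjusted p = 0.014) and *Vha68-2* (0.46 ± 0.12, edgeR adjusted p = 0.023). This count changed with single libraries and settings. It was 11 without 24 hr replicate 3, 3 without 48 hr replicate 1, 2 without 48 hr replicate 2, and 1 after thinning, and without normalization factors, which moved the median of all genes by -0.40, none of the 6 kept its call and 0 genes were called higher and 2 lower, although all 6 kept their sign.

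The ratio of the 2 a subunit genes within the same cells does not depend on scaling. It was followed over cells grouped by *atilla* UMIs, in groups chosen after the values were seen and therefore without a test. At 48 hr, cells with 0 *atilla* UMIs had 0.32, 0.43 and 0.34 UMIs of *Vha100-1* for each UMI of *Vha100-2*, cells with 5 to 19 had 0.64, 0.47 and 0.58, and cells with 20 or more had 2.12, 2.49 and 2.48. At 24 hr the ratio was 0.26, 0.32 and 0.23 in cells with 0 *atilla* UMIs, 0.24, 0.65 and 0.47 in cells with 5 to 19, and 0.92, 0.62 and 0.89 in cells with 20 or more. *Vha100-1* thus outnumbered *Vha100-2* in the 48 hr cells with 20 or more *atilla* UMIs and in none of the other groups of cells at either time. Median UMIs at 48 hr were 3752.5, 3927 and 3912 in cells with 0 *atilla* UMIs and 2812, 3614 and 3291 in cells with 5 to 19. They were 11842.5, 9829.5 and 9687 in cells with 20 or more, so that this group differed from the others in depth as well. The part of depth in the levels and the ratio was not tested here beyond the thinned contrast.

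**Figure D5:**
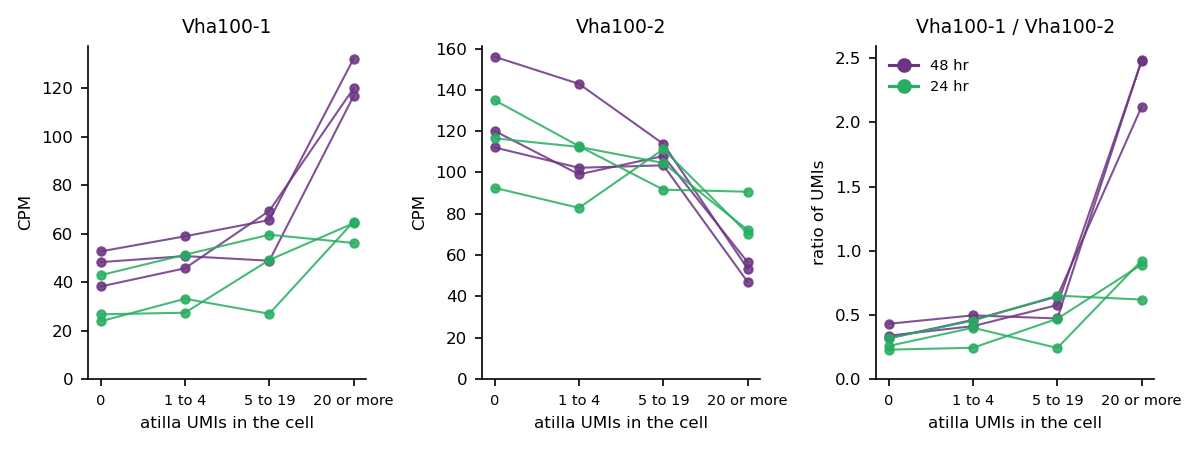
CPM of *Vha100-1*, CPM of *Vha100-2* and the ratio of their UMIs in cells grouped by *atilla* UMIs, low to high; each line is a Drop-seq library, colors mark the time. At 48 hr the ratio lies between 0.32 and 0.64 in the 3 lower groups and between 2.12 and 2.49 in cells with 20 or more *atilla* UMIs; the 24 hr replicate 1 point at 5 to 19 rests on 12 cells.

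*Vha36-2*, a rare copy of the central stalk subunit D, was seen more often in lamellocytes than in other cells. In the *atilla* contrast it rose by 1.56 ± 0.34 on the log2 scale at 48 hr (edgeR adjusted p = 0.0012), with 93, 111 and 115 UMIs in *atilla* cells and 5, 7 and 7 in cells without *atilla* UMIs. At 24 hr it had 11, 19 and 21 UMIs in *atilla* cells and 3, 27 and 13 UMIs in the far more UMIs of cells without *atilla*, and since it passed the filter there only through the *atilla* cells, its difference is not read as a result. Its level in *atilla* cells was 9.04, 9.16 and 6.10 CPM at 48 hr, against 1.84, 3.45 and 3.04 CPM in the others. In the merged table, 68 of 860 cells (7.91%) of LM1 and LM2 had a *Vha36-2* UMI in the wasp inf. 24 hr libraries, against 27 of 5310 other cells (0.508%), with median depths of 6796 and 4102 UMIs. In the wounded and unwounded libraries together it was 7 of 1405 lamellocytes (0.498%), against 6 of 11883 other cells (0.0505%), with median depths of 3491 and 2510 UMIs, and 29 of the 32 UMIs of those other cells lay in the 3 PM6 cells described above. The wasp inf. 24 hr libraries are the same as in the 24 hr table. They held 13, 60 and 36 *Vha36-2* UMIs in the merged table and 14, 60 and 36 in the other. Cells were pooled over libraries and grouped by clusters made from the same counts, so that all these shares are a description only. The shares of the wasp and the wounding libraries were not tested against each other, since these differ in strain, age, cell isolation, technology and annotation as well as in depth. *Vha36-1*, the main copy, exceeded *Vha36-2* in each of these groups of cells at 48 hr, with 356.7, 367.0 and 381.2 CPM in *atilla* cells.

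Other genes of the pathway moved in part with the pump. Of 28 genes of endosomes and lysosomes, 22 were tested in the Drop-seq tables, and in the *atilla* contrast at 48 hr edgeR called 12 higher and 6 lower, where it called 31.5% of all genes higher and 30.1% lower, with a median log2 difference of 0.51, against 0.01 over all genes. The share lower was thus near that of all genes. Without normalization factors the split was 8 higher and 9 lower. Trafficking genes were among those higher, with the endosome GTPases *Rab7* at 1.55 ± 0.09 (edgeR adjusted p = 1.1e-08) and *Rab5* at 1.05 ± 0.09 (edgeR adjusted p = 3.5e-07), and *dor* and *Vps16A*, subunits of a complex that tethers lysosomes, at 1.19 ± 0.28 (edgeR adjusted p = 0.0021) and 0.79 ± 0.12 (edgeR adjusted p = 0.00010). The 6 lower were the hexosaminidase genes *Hexo1* at -1.84 ± 0.25 and *Hexo2* at -1.002 ± 0.09, the protease genes *cathD* at -1.22 ± 0.10, *CtsB1* at -0.97 ± 0.10 and *26-29-p* at -1.52 ± 0.11 (edgeR adjusted p of at most 3.0e-05 each), and the cholesterol transporter gene *Npc1a*, while another protease gene, *Cp1*, rose by 1.22 ± 0.08. At 24 hr 9 were higher and 2 lower, where 15.2% of all genes were higher and 12.8% lower. Between 48 hr and 24 hr over all cells 9 were higher and 1 lower, where 20.1% of all genes were higher and 15.8% lower. Within cells with 0 *atilla* UMIs 3 were higher and 1 lower at 48 hr, where 10.1% of all genes were called. Within *atilla* cells 2 were higher and 1 lower, where 11.8% and 11.3% of all genes were. For the difference of the *atilla* contrast between the times, 3 were higher and 6 lower, where 10.2% and 9.09% of all genes were. The median there was -0.06 for this list, while 6 pump genes were higher and 0 lower. The mitochondrial ATP synthase, which is related to the vacuolar pump but makes ATP, was set beside it. Of 13 genes listed, 7 were found under the names searched in the Drop-seq tables, and edgeR called 0 of them in the *atilla* contrast at 48 hr (1 at an unadjusted p under 0.05, and 1 called lower by DESeq2) and 0 at 24 hr (0 at an unadjusted p under 0.05 and 0 by DESeq2), while 4 of 7 were lower at 48 hr than at 24 hr over all cells, where 15.8% of all genes were lower. In the wounding comparison, edgeR called 0 genes of either list in all hemocytes, where 25 and 13 were tested, with 0 at an unadjusted p under 0.05 and 0 called by DESeq2. Of all 7415 genes tested there edgeR called 0.351%, so that 0 calls in lists of this size are near that share.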

How the data were processed

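scRNA-seq of larval hemocytes was used as the UMI count tables that the authors deposited. Per the study's methods, the authors made 10X counts with Cell Ranger (the submitters' processing notes name version 3.1.0), inDrops counts with bcbio on a FlyBase transcriptome and Drop-seq counts with Drop-seq tools and STAR, and filtered and clustered the cells of the merged table. The deposited cluster assignments were used as given, and no doublet caller was run. Cells of the separate Drop-seq tables were kept with at least 500 UMIs, 200 genes and at most 30% mitochondrial UMIs. UMIs were summed per library, and per cluster or *atilla* class with at least 10 cells. Sums were tested with edgeR 4.0.16 in R 4.3.3 (quasi-likelihood test, TMM, filterByExpr, Benjamini-Hochberg over all genes tested, adjusted p under 0.05), with technology as a covariate for wounding and library as a block for the *atilla* contrasts. DESeq2 1.42.0, RLE size factors, no normalization factors, no filter, a replicate block, thinned cells (2000 UMIs, *atilla* minimum 2), an *atilla* minimum of 10 and each library left out were alternatives, in 139 fits in all.

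Libraries are separate samples of pooled larvae, so that p-values measure the spread between such pools. Same-numbered wounded and unwounded libraries deviated together over genes (r = 0.65 for 10X and 0.44 for inDrops), and each inDrops pair was deposited as 1 sample record, so that the fit with the replicate block is given beside the wounding result. The deposited tables of single samples and of inDrops barcodes were not used here. Members and lists were chosen with earlier results of these data known. Named were the members with a mean of at least 50 CPM in the merged table and any member called in a comparison. Gene positions are from the Ensembl annotation of BDGP6, and the boundaries used by the authors may differ.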

Additional observations from a re-analysis of the deposited data

Results flagged for a closer look

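Single libraries stood apart within their group for 4 genes among the 42 groups of 4 libraries examined by Dixon's test, where chance gives about 1 in 20. *Vha16-3* was at 14.1 CPM in wounded 2 and at 0 in the other wounded libraries, and at 20.7 CPM in unwounded 2 and at 0 in the other unwounded libraries. *Vha16-5* was at 10.8 CPM in wounded 2, against at most 0.393 CPM in the other wounded libraries, and at 14.8 CPM in unwounded 2, against at most 0.5003 CPM in the other unwounded libraries. For both genes, 3 cells of cluster PM6 held most of these UMIs. *VhaM9.7-c* was at 23.3 CPM in wounded 4 and between 16.4 and 16.6 CPM in the other wounded libraries. *Vha26* was at 600.1 CPM in unwounded 1 and between 308.7 and 326.3 CPM in the other unwounded libraries.

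The difference between cells with 5 or more *atilla* UMIs and cells with 0 was larger at 48 hr than at 24 hr for 6 genes by edgeR's interaction term, by 0.86 on the log2 scale for *Vha100-1*, 0.69 for *VhaAC39-1*, 0.57 for *Vha13*, 0.50 for *VhaM9.7-b*, 0.49 for *Vha55* and 0.46 for *Vha68-2*. Depth per cell, the number of *atilla* cells and their lamellocyte marker level differed between the times as well. The part of these in the differences was not tested beyond the thinned fit.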

How the results depend on the processing

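No called pump gene changed sign in any alternative. The calls of single genes were kept in 95 of 108 alternatives for 48 hr against 24 hr over all cells, in 37 of 52 in *atilla* cells, in 167 of 169 for the *atilla* contrast at 48 hr, in 103 of 142 at 24 hr and in 47 of 72 for the difference between the times. Counts of called pump genes moved as follows, and the cause was not tested. Over all cells, 48 hr against 24 hr gave 9 genes, 15 without normalization factors and 14 with DESeq2, and 6 to 13 with 1 library left out. In cells with 0 *atilla* UMIs it gave 0, 2 without normalization factors, which moved the median of all genes by 0.30, and 5 with no filter on low counts. In *atilla* cells it gave 4, 9 without normalization factors, 8 with no filter, 9 with DESeq2 and 2 with thinned cells, and 2 to 11 with 1 library left out. The *atilla* contrast gave 19 to 20 at 48 hr with 1 library left out, and at 24 hr 16 in the edgeR fit, 10 with DESeq2, 7 with thinned cells and 5 to 13 with 1 library left out. The difference between the times gave 6, 2 without normalization factors, 14 with no filter, 1 with thinned cells, 2 with an *atilla* minimum of 10 and 2 to 11 with 1 library left out. With the replicate number as a block, 48 hr against 24 hr gave 7 over all cells and 2 in *atilla* cells, and wounding gave 0 in each class. Same-numbered Drop-seq libraries did not deviate together (r from -0.14 to -0.06), so that they share only a number.

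Over all genes tested, calls ranged over the alternatives from 0 to 113 for wounding in all hemocytes (26 in the edgeR fit), 0 to 68 in plasmatocytes (13), 24 to 217 in lamellocytes (78) and 0 to 27 in crystal cells (2). They ranged from 1449 to 3737 for 48 hr against 24 hr (2871), 330 to 1855 in cells with 0 *atilla* UMIs (661), 557 to 2111 in *atilla* cells (1636), 3321 to 5677 for the *atilla* contrast at 48 hr (4648), 819 to 2159 at 24 hr (1749) and 607 to 2278 for the difference (1346). With at least 30 cells of a cluster required, the median ratio of PM6 was 1.17 in place of 0.89, and the other clusters moved by less than their spread over libraries.

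Rare copies have few UMIs, and 24 hr replicate 1 holds 204 cells, 44 of them *atilla* cells.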
